A study of Caenorhabditis elegans with 25 samples.

Results

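The 31 genes described here encode the subunits of the 26S proteasome of Caenorhabditis elegans. They were chosen by name, as the pas and pbs genes of the 20S core and the rpt and rpn genes of the 19S cap, and not by any measured value. They are 31 of the 45461 gene identifiers counted. The core set holds 14 genes, 7 of the outer alpha rings (pas-1 to pas-7) and 7 of the inner beta rings (pbs-1 to pbs-7). The cap set holds 17 genes, 6 ATPases (rpt-1 to rpt-6) and 11 non-ATPase subunits (rpn-1, rpn-2, rpn-3, rpn-5, rpn-6.1, rpn-7, rpn-8, rpn-9, rpn-10, rpn-11 and rpn-12).

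The proteasome is the main machine by which a cell degrades proteins that carry ubiquitin chains. The core is a barrel of stacked rings with its proteolytic sites facing inwards, and the cap binds the ubiquitin chain, removes it, unfolds the protein with its ring of ATPases and feeds it into the core. Ubiquitin-dependent degradation is known to drive meiotic divisions and the transition from oocyte to embryo in this animal.

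RNA-seq was performed on 25 libraries in 9 groups. Germline libraries came from pooled distal gonad arms, cut at the bend where pachytene ends, of day 1 adults, and sperm libraries from sperm released by cutting open males. Male germlines came from N2 wild type (n = 2), from him-8(e1489) (strain CB1489, n = 4), a mutation that raises the share of males, and from mes-3(bn35) homozygotes (n = 3) born to SS818 parents, mes-3(bn35) over the balancer hT2-GFP. Sperm came from mes-3 (n = 3) and him-8 (n = 3) males. Oogenic germlines came from fem-2(b245ts) feminized hermaphrodites (DH245, n = 3) and N2 hermaphrodites (n = 3). The 2 offspring groups were oogenic germlines of SS1167 animals that were all homozygous for mes-3 and fem-2. The M+P- fathers (n = 2) were mes-3 mutant, the M+P+ fathers (n = 2) carried hT2-GFP, and the mothers of both groups carried hT2-GFP. Worms were kept at 20 degrees C, except that fem-2 animals were kept at 15 degrees C and moved to 20 degrees C for 24 h before dissection and both offspring groups were kept at 15 degrees C. The him-8 and fem-2 alleles and this temperature history cannot be told apart from sex in him-8 against fem-2. The mes-3 gene encodes a partner of the PRC2 histone methyltransferase. Its own mRNA had 26.9 to 40.2 CPM (counts scaled to each library's total gene counts) in mes-3 male germlines and 12.98 to 29.8 CPM in him-8 male germlines. In sperm it had 18.9 to 40.1 CPM in mes-3 and 7.11 to 34.6 CPM in him-8, so RNA level does not check the mes-3 labels.

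Total gene counts per library ran between 1078195 and 18617543. Spermatogenesis markers (7 genes, of which gsp-3 and gsp-4 encode sperm phosphatases) summed to between 2964 and 4265 CPM in male germlines and to between 0.843 and 1.77 CPM in the 6 N2 and fem-2 oogenic libraries, as their labels state. Muscle markers (such as unc-54, the body-wall myosin heavy chain) summed to between 1961 and 6325 CPM in the 6 sperm libraries, 59.7 and 2571 CPM in male germlines and 49.5 and 113 CPM in N2 and fem-2 oogenic germlines. Intestine markers summed to between 322 and 1048 CPM in those oogenic germlines, against between 18.1 and 495 CPM in male germlines. A tag in the names of the deposited count tables divided the libraries into 7 sets. All him-8 male germlines lay in other sets than all mes-3 male germlines, all sperm and all fem-2 oogenic germlines. Genotype in male germlines, sperm against germline in him-8 and sex in him-8 against fem-2 therefore cannot be told apart from that tag.

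All 31 genes were detected in every library, and the lowest count of any of them was 49. Together they took 0.759% to 1.05% of gene counts. They lie on the 5 autosomes (10 on chromosome I, 7 on II, 6 on III, 3 on IV and 5 on V) and none lies on X. Per length, in RPKM, the median proteasome gene stood above 94.4% of the genes with counts in him-8 sperm, the lowest such value, and above 97.9% in M+P+ offspring germlines, the highest.

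Within a group, the subunit mRNAs were not equal in level. In N2 male germlines the highest RPKM was that of rpt-1 (302 ± 5.3, SD, n = 2), a cap ATPase, and the lowest was that of rpn-6.1 (35.1 ± 5.7), a non-ATPase subunit of the lid of the cap. The next gene above rpn-6.1 was rpn-11 at 74.2 ± 12.9. In N2 oogenic germlines the highest RPKM was that of rpn-7 (287 ± 25.7, n = 3), another lid subunit, and the lowest that of pas-1 (124 ± 34.9), an alpha ring subunit. The ratio of the highest to the lowest gene was 8.59 in N2 male and 2.31 in N2 oogenic germlines; it was between 4.29 (mes-3 male germlines) and 15.3 (him-8 sperm) in the 5 male and sperm groups and between 2.31 and 2.77 in the 4 oogenic groups, offspring included. In him-8 sperm rpn-1, the large scaffold subunit of the cap, stood at the top (352 ± 15.4 RPKM) and rpn-6.1 at the bottom (23.04 ± 7.3). Neighbours in the middle of the order lay within each other's spread: in N2 male germlines rpt-4, rpn-10, rpn-8, rpt-2 and pbs-1 fell between 203 and 210.2 RPKM.

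Summed over all 31 genes, proteasome mRNA was at 7589 to 10521 CPM in every library. The core and cap sums did not keep a fixed proportion. The core to cap ratio of summed CPM was 0.310, 0.332 and 0.327 in mes-3 sperm, 0.246, 0.236 and 0.274 in him-8 sperm, 0.346, 0.359 and 0.341 in mes-3 male germlines and 0.466, 0.470, 0.441 and 0.414 in him-8 male germlines. These 4 groups did not overlap in this ratio: him-8 sperm were lowest and him-8 male germlines highest. The ratio was 0.406 and 0.426 in N2 male germlines, 0.486, 0.480 and 0.492 in fem-2 oogenic germlines and 0.482, 0.441 and 0.477 in N2 oogenic germlines, so N2 males lay below both oogenic groups. Offspring germlines overlapped, at 0.433 and 0.416 for M+P- and 0.422 and 0.432 for M+P+. No test was made of this ratio, since it is a score over chosen genes. Core mRNAs are shorter than cap mRNAs (median 952.5 against 1487 bases). With RPKM in place of CPM the ratio stayed lowest in him-8 sperm (0.464) and highest in fem-2 oogenic germlines (0.871). RPKM divides a gene by the same length in every library, so it cannot remove a length trend that differs between libraries. The part of such a trend in the ratio was not tested.

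**Figure D1:**
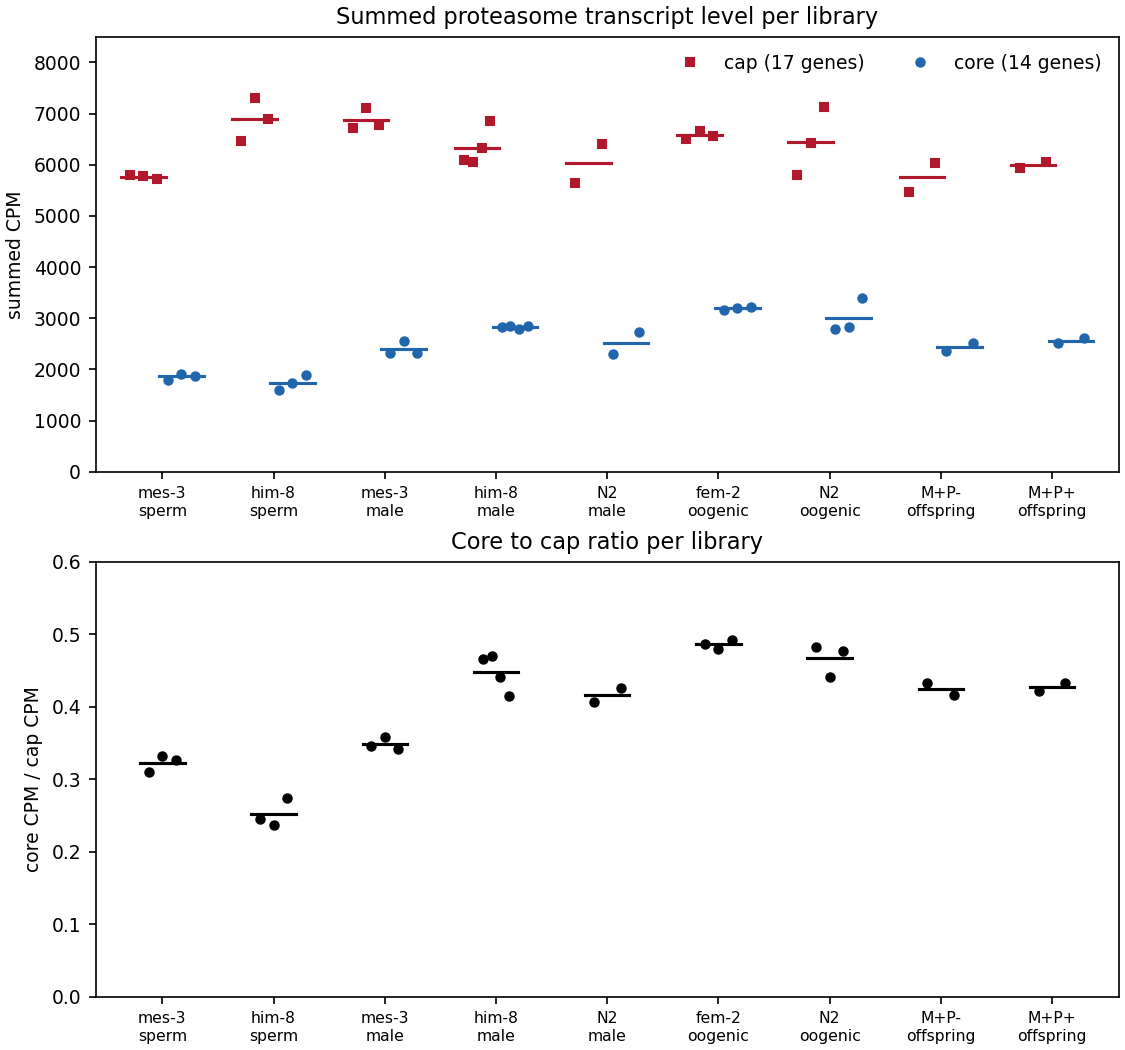
Summed CPM of the 17 cap genes (squares) and the 14 core genes (circles) in every library (upper panel) and their ratio, core over cap (lower panel), for the 9 groups on the x axis. Bars are group means; core sums are 1590 to 1920 CPM in the 6 sperm libraries and 2297 CPM or more in every germline library, and the ratio is lowest in him-8 sperm.

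The comparison of male with oogenic germlines asked which proteasome genes differ between a germline that makes sperm and a germline that makes oocytes. Most of them were higher in males relative to the typical gene, and rpn-6.1 and rpn-11 were lower. In N2, 26 of the 31 genes rose in male germlines and 2 fell (60.3% of the 8574 genes tested were called, 3287 higher and 1886 lower), by edgeR's quasi-likelihood test with Benjamini-Hochberg adjusted p under 0.05 and TMM scaling, which rescales each library so that the bulk of genes shows no net change. In him-8 males against fem-2 oogenic germlines, 20 rose and 2 fell (64.2% of 9244 genes were called, 3125 higher and 2811 lower). The median log2 fold change of the 31 genes was 0.77 in N2 and 0.36 in him-8 against fem-2, beside 0.23 and 0.03 over all genes tested.

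The direction of most single genes depended on the scaling, and the excess over the typical gene depended on other choices. With total counts in place of TMM factors, the median of all genes was lower by 0.93 on the log2 scale in N2 and by 0.48 in him-8 against fem-2, and the proteasome median then exceeded it by 0.55 and 0.33, against 0.54 and 0.33 with TMM. With a length correction the excess was 0.14 in N2 and -0.25 in him-8 against fem-2. In him-8 against fem-2 it was also -0.26 with no count filter, 0.04 with DESeq2 and 0.08 in 1 fit of all libraries, so its sign in that pair rests on these choices. With total counts only 2 of 31 genes rose in N2 males and 6 fell (76.4% of all genes were called), and 3 rose and 7 fell in him-8 against fem-2 (73.9%). In plain CPM, 3 genes lay higher in every N2 male library than in every N2 oogenic library (28.5% of genes) and 12 lay lower (55.0%); of those 12, 8 (pas-5, pas-6, pas-7, pbs-1, pbs-2, pbs-7, rpn-2 and rpn-9) were called higher with TMM. Without N2 oogenic replicate 1 the count of risen genes with TMM was 9 rather than 26, and without fem-2 oogenic replicate 1 or 2 it was 11 or 13 rather than 20.

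In plain CPM the gene that differed most was rpn-6.1 (F57B9.10, chromosome III), whose lid subunit contacts the core and in C. elegans is linked to proteasome activity and resistance to protein stress. It had 52.0 and 65.6 CPM in N2 male germlines, against 240.2, 295 and 370.3 CPM in N2 oogenic germlines. It had 57.6, 44.3, 74.7 and 68.4 CPM in him-8 male germlines, against 297, 336 and 305 CPM in fem-2 oogenic germlines. Every male library lay below every oogenic library, in mean CPM 5.13-fold lower in N2 and 5.11-fold lower in him-8 against fem-2. With TMM scaling, which raises the males relative to plain CPM, the log2 fold change was -1.44 ± 0.19 (SE; edgeR adjusted p = 0.00030) in N2 and -1.86 ± 0.14 (adjusted p = 5.8e-06) in him-8 against fem-2, and the call was kept in all 16 and all 18 alternatives.

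Its paralog rpn-6.2 (F59B2.5), not among the 31 genes, had the opposite pattern. It had 218 and 265 CPM in N2 male germlines, against 15.8, 31.2 and 25.03 CPM in N2 oogenic germlines, and 218, 270.3, 249 and 275 CPM in him-8 males, against 24.4, 29.5 and 23.4 CPM in fem-2 oogenic germlines. The groups did not overlap, with log2 fold changes of 4.25 (edgeR adjusted p = 7.5e-07) and 3.79 (adjusted p = 1.1e-07), kept in every alternative. The sum of both paralogs was 256 to 426 CPM in all 25 libraries. The rpn-6.2 share of that sum was 76.9% to 85.9% in N2 and him-8 male germlines and 6.16% to 9.56% in N2 and fem-2 oogenic germlines. Whether reads of these paralogs were counted for the wrong copy was not tested.

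The other gene that was lower in males was rpn-11 (K07D4.3, chromosome II), the deubiquitinase of the cap. It had 72.1 and 92.3 CPM in N2 male germlines, against 274, 325 and 253 CPM in N2 oogenic germlines. It had 105, 99.5, 74.5 and 90.9 CPM in him-8 male germlines, against 292, 299.8 and 279 CPM in fem-2 oogenic germlines. No male library reached the lowest oogenic library, the male averages in CPM being 3.46-fold and 3.14-fold lower. The log2 fold changes with TMM were -0.87 ± 0.17 (edgeR adjusted p = 0.0027) and -1.16 ± 0.15 (adjusted p = 0.00015). Its exons share 16 bases with pqn-48 on the other strand, a gene at 2.37 CPM or below in these 4 groups; whether counting used strand is not stated. Of the other members, 9 also share exon bases with a gene on the other strand, the longest stretch being 394 bases of rpn-7 with nemt-1, and pbs-7 shares 70 bases with K07A12.5 on its own strand. K07A12.5 averaged 115 CPM in N2 male and 4.87 CPM in N2 oogenic germlines, so the pbs-7 count is uncertain.

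The cap ATPase gene rpt-6 (Y49E10.1, chromosome III) and rpn-10 (B0205.3, chromosome I), the gene of a ubiquitin receptor that has been linked to germline sex determination in C. elegans, were higher in males on every scale tried. For rpt-6, N2 male germlines had 336 and 366 CPM, against 224, 233 and 231 CPM in N2 oogenic germlines, and him-8 male germlines had 347, 356, 354 and 377 CPM, against 255, 238 and 229.9 CPM in fem-2 oogenic germlines. Male and oogenic libraries did not overlap in either pair, and the log2 fold changes were 1.54 ± 0.14 (edgeR adjusted p = 2.6e-05) and 1.07 ± 0.10 (adjusted p = 2.7e-05). With total counts they were 0.62 and 0.58 and stayed called. For rpn-10, N2 male germlines had 299 and 230.4 CPM, against 160.5, 187 and 185 CPM in N2 oogenic germlines, with a log2 fold change of 1.52 ± 0.19 (adjusted p = 0.00019). In him-8 male germlines it had 280.3, 290.3, 251 and 265 CPM, against 174, 183 and 200.1 CPM in fem-2 oogenic germlines, with a log2 fold change of 1.04 ± 0.13 (adjusted p = 0.00015). Every male library again lay above every oogenic library.

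A further cap ATPase gene, rpt-1 (C52E4.4, chromosome V), had 472 and 484 CPM in N2 male germlines, against 372, 393 and 385 CPM in N2 oogenic germlines. The N2 groups did not overlap, but the log2 fold change of 1.25 ± 0.15 (edgeR adjusted p = 0.00014) was 0.32 (adjusted p = 0.12) with total counts, which ended the call. In him-8 male germlines rpt-1 had 494, 484, 449 and 503 CPM, against 381, 349 and 369 CPM in fem-2 oogenic germlines. These groups did not overlap either, and the log2 fold change was 0.89 ± 0.12 (adjusted p = 0.00017) with TMM and 0.40 (adjusted p = 0.0097) with total counts. The fourth gene above in every him-8 library was the ATPase gene rpt-2 (log2 fold change 0.70 ± 0.11). All 6 ATPase genes rose with TMM in both sex comparisons, with a median log2 fold change of 1.04 and 0.66.

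**Figure D2:**
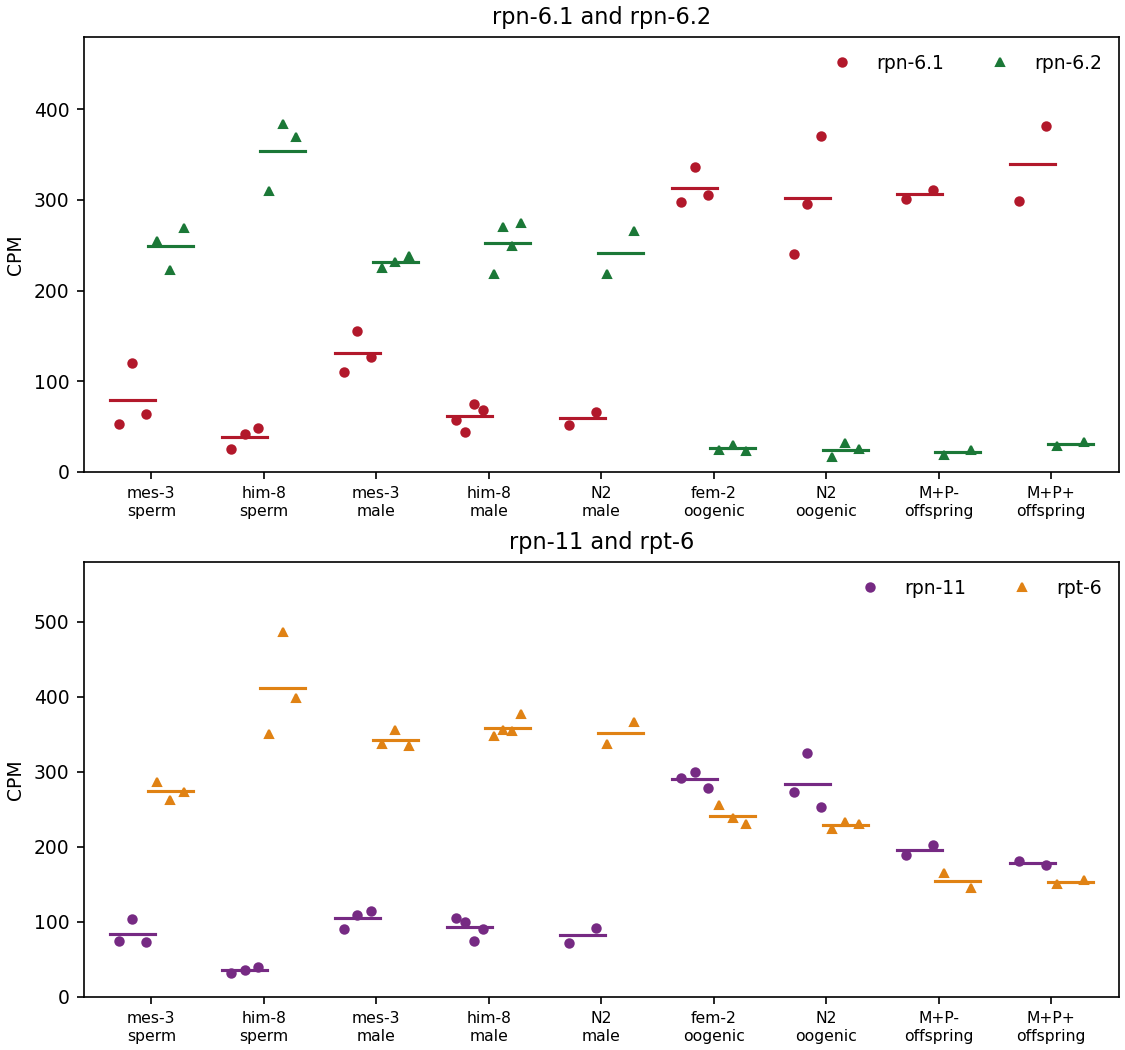
CPM of rpn-6.1 and its paralog rpn-6.2 (upper panel) and of rpn-11 and rpt-6 (lower panel) in every library of the 9 groups; bars are group means. In the oogenic and offspring germlines rpn-6.1 is at 240.2 CPM or more and rpn-6.2 at 32.4 CPM or less, and in all male germlines and sperm rpn-6.2 is the higher of the pair.

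With TMM no core gene was called lower between the sexes, and the core median lay nearer to 0 than the cap median, a difference that was not tested. In N2, 11 of 14 core genes rose, with a median log2 fold change of 0.58 against 0.87 for the cap genes, of which 15 rose and 2 fell. In him-8 against fem-2, 8 of 14 core genes rose (median 0.32), against 12 of 17 cap genes that rose and 2 that fell (median 0.54). With total counts the core median again lay below the cap median, but the cap median was then the nearer to 0. The core and cap medians were -0.34 and -0.06 in N2 and -0.17 and 0.06 in him-8 against fem-2. In each pair 4 core genes fell and 0 rose. The largest core changes in N2 were those of the beta ring genes pbs-4 (1.08 ± 0.14) and pbs-6 (0.98 ± 0.14), whose CPM overlapped between the sexes. Across all genes the log2 fold change fell with mRNA length: its median in N2 was 0.37 for genes of 832 to 1239 bases, the range of the core genes, and -0.03 for genes of 1239 to 3419 bases, up to the longest cap gene. With a correction for length, 2 core genes rose and 0 fell in N2 (65.7% of all genes were called), and 0 rose and 10 fell in him-8 against fem-2 (77.0%), so the direction of the core genes in that pair rests on this choice. The same correction left 14 cap genes higher and 2 lower in both pairs.

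No member differed in its sex effect between the strain pairs: the test of the difference called 0 of 31 genes in the main fit and in every alternative run on it (0.0101% of 9916 genes called), and the proteasome median of that difference was -0.11. Muscle markers rose with the male germlines (8 of 8 in N2 and 5 of 8 in him-8 against fem-2). Intestine marker sums went the other way in N2, at 88.6 to 244 CPM in male and 676 to 890 CPM in oogenic germlines. They were at 24.5 to 495 CPM in him-8 male and 322 to 1048 CPM in fem-2 oogenic germlines, with overlap. The part of both marker sets in the proteasome values was not tested. N2 male replicate 2 and N2 oogenic replicate 3 carry the same library-set tag, and between these libraries rpn-6.1 was at 65.6 against 370.3 CPM, rpn-11 at 92.3 against 253 CPM and rpt-6 at 366 against 231 CPM. In all these bulk samples, fewer cells of a type and less RNA per cell cannot be told apart.

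**Figure D3:**
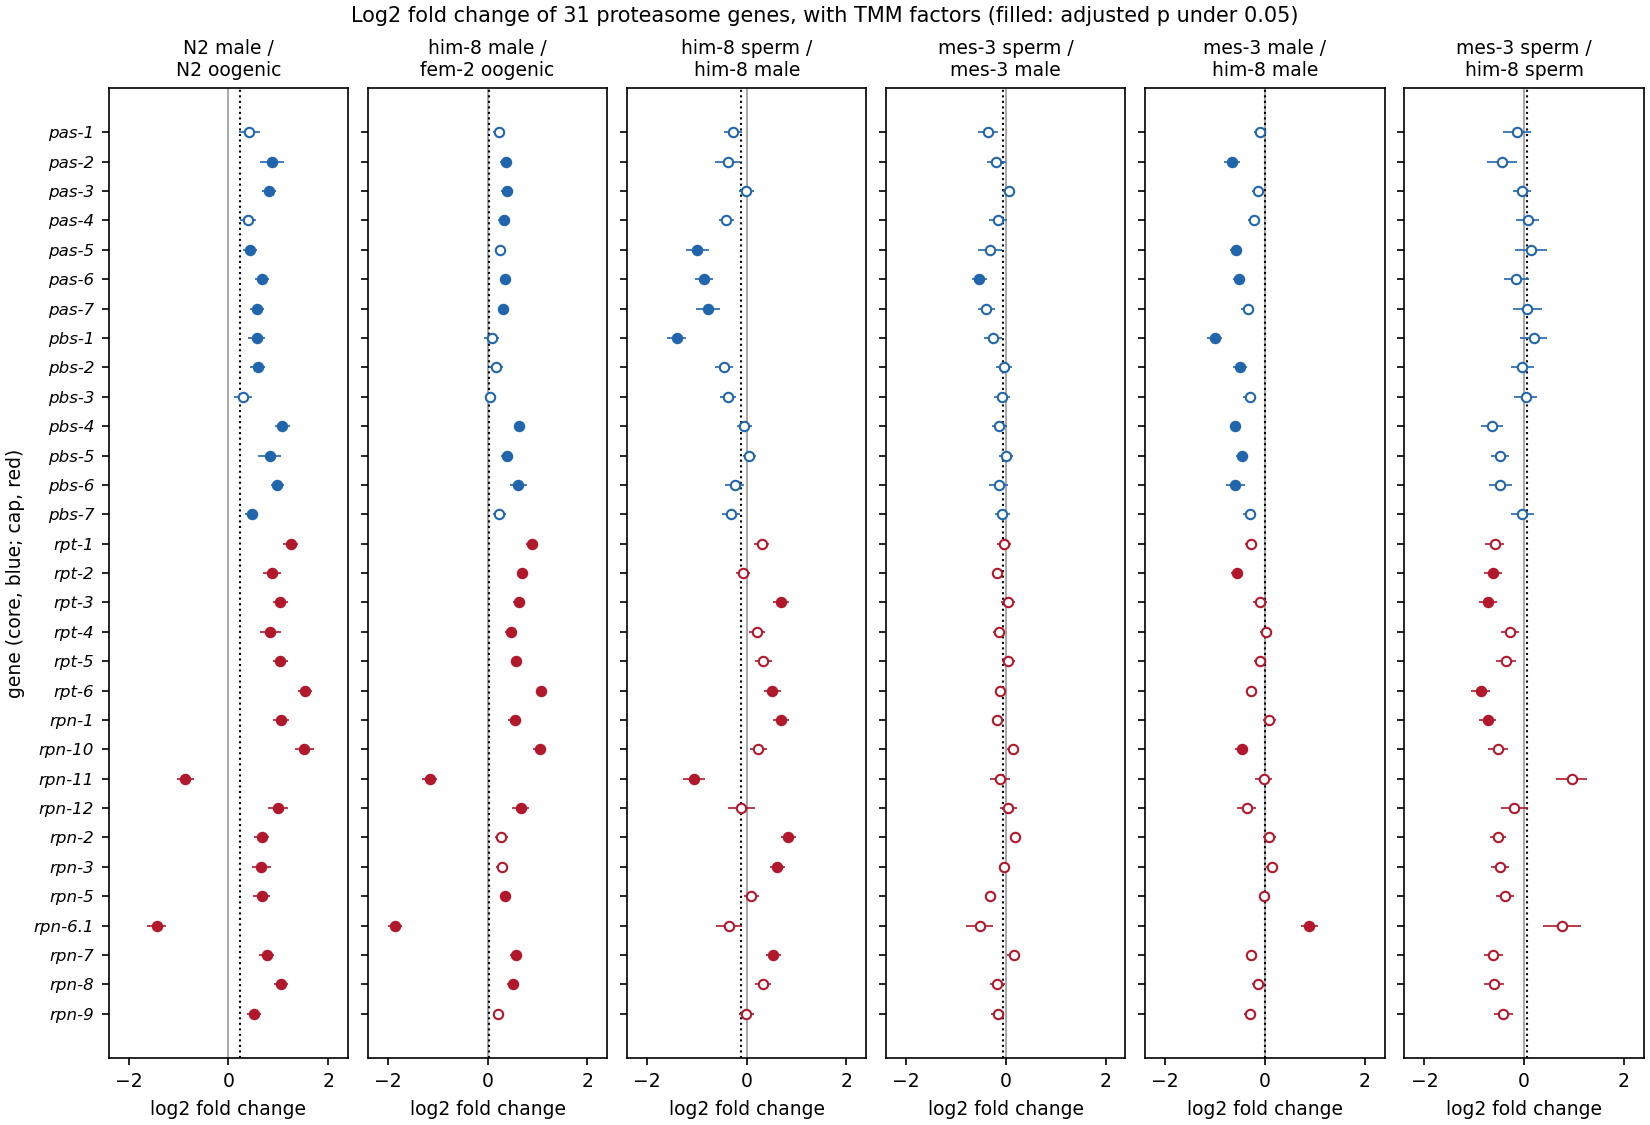
Log2 fold change of each of the 31 genes (rows; core blue, cap red) in 6 comparisons, with TMM scaling; whiskers are 1 SE, filled points have an adjusted p under 0.05 and the dotted line is the median of all genes tested. In both sex panels rpn-6.1 and rpn-11 stand alone on the lower side, and in him-8 sperm the called core genes are all lower.

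The comparison of sperm with the male germline asked what proteasome mRNA mature sperm hold beside the germline that made them. In him-8, 6 of 17 cap genes rose and 1 fell in sperm, and 4 of 14 core genes fell and 0 rose (30.6% of 8626 genes tested were called, 1401 higher and 1242 lower). The median log2 fold change was -0.38 for core genes and 0.30 for cap genes, against -0.11 over all genes tested. In plain CPM all 14 core genes lay lower in every sperm library than in every germline library (32.7% of all genes did so), and of the 17 cap genes 4 lay higher (14.8% of all genes) and 4 lower. With total counts, where the median of all genes was lower by a further 0.31, 8 core genes fell and 0 rose, 1 cap gene rose and 1 fell (33.9% of all genes were called), and the cap median was -0.0026.

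The core gene that fell most was pbs-1 (K08D12.1, chromosome IV), whose product is the beta ring subunit that in other eukaryotes carries the caspase-like site. It had 61.6, 53.3 and 74.2 CPM in him-8 sperm, against 226, 221, 173 and 208 CPM in him-8 male germlines. The groups lay far apart, with a log2 fold change of -1.41 ± 0.19 (edgeR adjusted p = 0.0022), called in all 16 alternatives. The alpha ring gene pas-5 (F25H2.9, chromosome I) had 77.8, 49.8 and 106 CPM in him-8 sperm, against 188, 198, 184 and 191 CPM in him-8 male germlines, a log2 fold change of -0.99 ± 0.23 (adjusted p = 0.015). The alpha ring genes pas-6 (-0.85 ± 0.18) and pas-7 (-0.78 ± 0.24) fell as well.

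Among cap genes only rpn-11, the deubiquitinase, fell in him-8 sperm. It had 31.5, 35.5 and 40.2 CPM in him-8 sperm, against 105, 99.5, 74.5 and 90.9 CPM in him-8 male germlines (log2 fold change -1.06 ± 0.21, edgeR adjusted p = 0.0092). No sperm library reached the lowest germline library. By contrast rpn-2 (C23G10.4, chromosome III), a large scaffold subunit of the cap, had 1153, 1111 and 1041 CPM in him-8 sperm, against 665, 724, 858 and 835 CPM in him-8 male germlines. All 3 sperm libraries lay above all 4 germline libraries, with a log2 fold change of 0.84 ± 0.16 (adjusted p = 0.0075).

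The other large scaffold gene rpn-1 (T22D1.9, chromosome IV) had 1256, 1204 and 1151 CPM in him-8 sperm, against 865, 823, 949.6 and 1111 CPM in him-8 male germlines. The groups did not overlap, and the log2 fold change was 0.69 ± 0.15 (edgeR adjusted p = 0.013). The ATPase gene rpt-3 (F23F12.6, chromosome III) had 445, 441 and 464 CPM in him-8 sperm, against 287, 340.1, 373 and 390.1 CPM in him-8 male germlines. Again no library overlapped, and the log2 fold change was 0.69 ± 0.15 (adjusted p = 0.014). With total counts the calls of rpn-1 (adjusted p = 0.084) and rpt-3 (adjusted p = 0.081) ended and that of rpn-2 did not (adjusted p = 0.026). Without him-8 male replicate 3, him-8 male replicate 4 or him-8 sperm replicate 2 the count of risen genes was 3 rather than 6. In this comparison 2 of 8 muscle markers and 2 of 6 intestine markers rose, all 5 germline markers fell, and their part was not tested.

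In mes-3, few proteasome genes were called between sperm and male germlines, but their summed CPM was lower in every sperm library. All 31 genes together had 7589 to 7693 CPM in mes-3 sperm, against 9032 to 9666 CPM in mes-3 male germlines. The core genes had 1795 to 1920 CPM in that sperm, against 2315 to 2552 CPM in those germlines. Of 31 genes 0 rose and 1 fell (29.4% of 10018 genes tested were called, 1900 higher and 1041 lower), and the median log2 fold change was -0.15 for core and -0.11 for cap genes, against -0.06 over all genes. The gene that fell was pas-6 (CD4.6, chromosome V), an alpha ring gene. It had 116, 92.9 and 94.0 CPM in mes-3 sperm, against 149, 179.9 and 175 CPM in mes-3 male germlines, without overlap. Its log2 fold change was -0.53 ± 0.16 (edgeR adjusted p = 0.028), and the call was lost without mes-3 male replicate 2, mes-3 male replicate 3 or mes-3 sperm replicate 3 and with median-of-ratios factors. With total counts 3 core and 3 cap genes fell (35.2% of all genes were called). Without mes-3 sperm replicate 2 the count of fallen genes was 3 (26.4% of all genes were called). All these libraries carry the same tag; 8 of 9 muscle, 6 of 7 intestine and 2 of 3 hypodermis markers rose in mes-3 sperm, summed muscle markers were at 2352 to 4207 CPM in mes-3 sperm, against 59.7 to 147 CPM in the germlines, and their part was not tested.

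Male germlines of mes-3 set beside those of him-8 ask whether loss of this PRC2 partner goes with other proteasome mRNA levels. The genotype given for SS818 holds no him-8 allele. The mes-3 and him-8 mutations and the strain background therefore cannot be told apart, here or in sperm. In mes-3, 8 of 14 core genes were lower and rpn-6.1 was higher. Of all 31 genes 1 rose and 10 fell (28.0% of 8930 genes tested were called, 1092 higher and 1412 lower), 8 of the 10 in the core and the others being rpt-2 (-0.56 ± 0.11) and rpn-10 (-0.47 ± 0.13). The core median was -0.48 and the cap median -0.11, against 0.01 over all genes. With total counts, where the median of all genes was higher by 0.20, 3 core genes and 1 cap gene fell and 1 cap gene rose (30.2% of all genes were called). Without mes-3 male replicate 1 or 3 the count of fallen genes was 4 rather than 10 (14.5% and 10.3% of all genes were called). Across all genes the log2 fold change rose with mRNA length. Its median was -0.20 for genes of 832 to 1239 bases and 0.17 for genes of 1239 to 3419 bases. With a length correction 5 core and 8 cap genes fell (23.9% of all genes were called). The core median was then -0.31 and the cap median -0.21, against -0.08 over all genes.

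The largest fall was again that of pbs-1, with 114, 129 and 113 CPM in mes-3 male germlines, against 226, 221, 173 and 208 CPM in him-8 male germlines. Every mes-3 library lay below every him-8 library, with a log2 fold change of -1.01 ± 0.15 (edgeR adjusted p = 0.0027) that was called in all 18 alternatives. The alpha ring gene pas-2 (D1054.2, chromosome V) had 151, 198 and 127 CPM in mes-3 male germlines, against 228, 217, 210.3 and 208 CPM in him-8 male germlines. The groups did not overlap, but the log2 fold change of -0.66 ± 0.16 (adjusted p = 0.018) was -0.45 (adjusted p = 0.064) with total counts and was not called without mes-3 male replicate 1 or 3. The beta ring gene pbs-4 (T20F5.2, chromosome I) had 163, 155 and 157 CPM in mes-3 male germlines, against 216, 192, 207 and 213 CPM in him-8 male germlines. These too did not overlap (log2 fold change -0.59 ± 0.10, adjusted p = 0.0052).

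In the other direction, rpn-6.1 had 110.1, 155 and 127 CPM in mes-3 male germlines, against 57.6, 44.3, 74.7 and 68.4 CPM in him-8 male germlines. The mes-3 libraries were all higher, with a log2 fold change of 0.89 ± 0.17 (edgeR adjusted p = 0.0077), but lay below every oogenic library. Its paralog rpn-6.2 was at 225 to 239 CPM in mes-3, against 218 to 275 CPM in him-8 male germlines, so that its share of the pair was 59.9% to 67.1% in mes-3 and 76.9% to 85.9% in him-8. In this comparison 6 of 8 muscle markers fell, and 0 of 4 intestine markers, 1 of 3 hypodermis markers and 64 of 76 ribosomal protein genes fell; their part was not tested.

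Between mes-3 and him-8 sperm, which carry the same tag, 4 of 17 cap genes were lower in mes-3. The males also differed in the him-8 allele and in strain. Of all 31 genes 0 rose and 4 fell, all 4 in the cap (10.3% of 8424 genes tested were called, 271 higher and 594 lower). The cap median was -0.52 and the core median -0.04, against 0.06 over all genes. With total counts, where the median of all genes was higher by 0.27, rpn-11 rose and 0 genes fell (8.70% of all genes were called). The count of fallen genes was 0 without mes-3 sperm replicate 2 or 3 (3.15% and 4.56% of all genes were called). It was 1 without him-8 sperm replicate 2 (4.17%).

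The ATPase gene rpt-6 had 287, 263 and 272 CPM in mes-3 sperm, against 350.0, 486 and 398 CPM in him-8 sperm. The groups did not overlap, and the log2 fold change was -0.87 ± 0.19 (edgeR adjusted p = 0.012). The scaffold gene rpn-1 had 905, 951 and 788 CPM in mes-3 sperm, against 1256, 1204 and 1151 CPM in him-8 sperm, without overlap (log2 fold change -0.73 ± 0.16, adjusted p = 0.012). The ATPase gene rpt-3 had 401, 285 and 309 CPM in mes-3 sperm, against 445, 441 and 464 CPM in him-8 sperm, also without overlap (log2 fold change -0.72 ± 0.18, adjusted p = 0.022). The fourth gene that fell was the ATPase gene rpt-2 (-0.62 ± 0.18). With total counts the calls of rpt-6, rpn-1 and rpt-3 ended (adjusted p = 0.056, 0.065 and 0.14).

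The deubiquitinase gene rpn-11 had 74.9, 104 and 73.1 CPM in mes-3 sperm, against 31.5, 35.5 and 40.2 CPM in him-8 sperm. All mes-3 sperm libraries were above all him-8 sperm libraries, but the log2 fold change of 0.95 ± 0.31 missed the threshold with TMM (edgeR adjusted p = 0.068) and passed it with total counts (1.23, adjusted p = 0.028). Its level in mes-3 sperm overlapped that in mes-3 male germlines (90.9, 109 and 114 CPM). Muscle markers summed to 2352 to 4207 CPM in mes-3 sperm and 1961 to 6325 CPM in him-8 sperm, with 0 of 9 called. Hypodermis and oogenesis marker sums overlapped as well. Intestine markers did not, at 772 to 851 CPM in mes-3 and 324 to 734 CPM in him-8 sperm. Germline markers were at 532 to 671 against 383 to 463 CPM, and ribosomal protein genes at 33612 to 39248 against 15717 to 18834 CPM. Of the spermatogenesis markers 4 of 7 fell in mes-3 sperm. The part of these differences in the proteasome values was not tested.

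The difference between sperm and male germline was itself tested for dependence on genotype. The contrast was the sperm minus germline change in mes-3 less that in him-8, and 1 of 31 genes was called higher and 1 lower (2.75% of 10129 genes tested were called, 218 higher and 61 lower). These were pbs-1, at 1.21 ± 0.26 (edgeR adjusted p = 0.018), and rpn-1, at -0.81 ± 0.19 (adjusted p = 0.034). For pbs-1 the sperm change was -0.25 ± 0.18 in mes-3 and -1.41 ± 0.19 in him-8. For rpn-1 it was -0.17 ± 0.11 in mes-3 and 0.69 ± 0.15 in him-8. Among the fits without a replicate block, the pbs-1 call was lost without mes-3 male replicate 1 or 3 and with a length correction (adjusted p = 0.077). The rpn-1 call was kept in 5 of 17 alternatives, and among the fits without a block it was lost with total counts (adjusted p = 0.056), with a length correction (adjusted p = 0.28) and without him-8 male replicate 1 or 3, any of the 3 mes-3 male replicates, mes-3 sperm replicate 2 or 3, or him-8 sperm replicate 1 or 2.

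**Figure D4:**
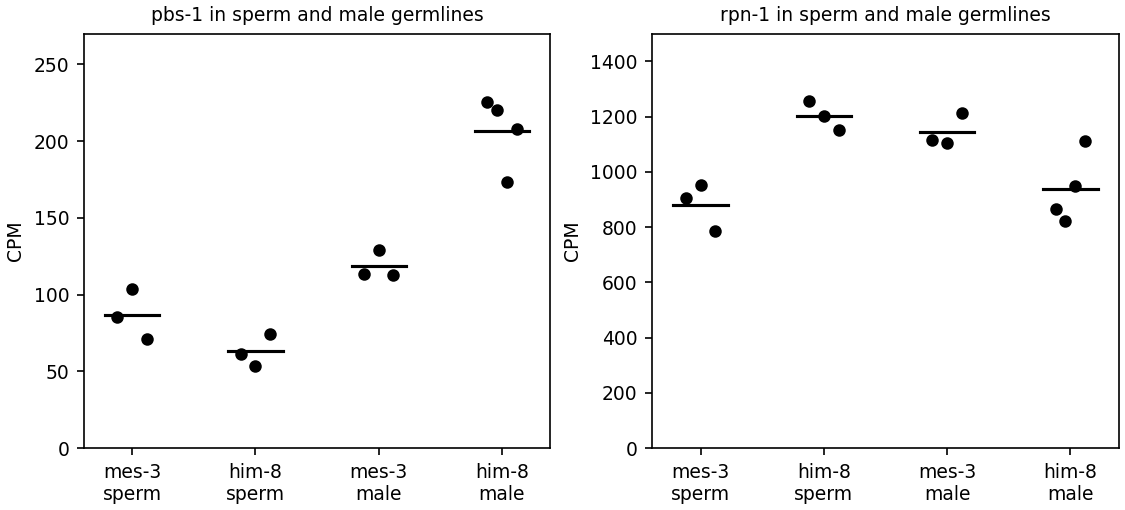
CPM of pbs-1 (left) and rpn-1 (right) in each library of mes-3 sperm, him-8 sperm, mes-3 male germlines and him-8 male germlines; bars are group means. For pbs-1 the him-8 male germlines (173 to 226 CPM) stand above the other 3 groups, and for rpn-1 the him-8 sperm (1151 to 1256 CPM) stand above the mes-3 sperm.

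The offspring comparison asked whether mes-3 mutant fathers leave a mark on the oogenic germline of their offspring. No proteasome gene was called between M+P- and M+P+ germlines, and neither was any other (0% of 11962 genes tested by edgeR). The count of proteasome genes at an unadjusted p under 0.05 was 0, and DESeq2 called 0 of them, beside 131 of 9876 genes in all. Their median log2 fold change was -0.12, against 0.00 over all genes, with a range of -0.28 to 0.17. The gene with the lowest p was pbs-3 (Y38A8.2, chromosome II), a beta ring gene, with 156 and 138 CPM in M+P- and 161 and 181 CPM in M+P+ germlines. Its libraries did not overlap, and the log2 fold change was -0.26 ± 0.15 (adjusted p = 0.59). Having 2 libraries a group limits what could be called. Both groups resembled the other oogenic germlines in the rpn-6 paralogs. The rpn-6.1 gene was at 301 and 311 CPM in M+P- and 299 and 381 CPM in M+P+. The rpn-6.2 gene was at 18.7 and 23.9 CPM in M+P- and 28.3 and 32.4 CPM in M+P+. Mean rpn-11 was 196 CPM in M+P- and 178 CPM in M+P+, against 284 CPM in N2 and 290 CPM in fem-2 oogenic germlines. Mean rpt-6 was 155 and 153 CPM, against 229 and 241 CPM, in the same order. The offspring also differed from the N2 and fem-2 germlines in mes-3 genotype, strain, temperature and tag, which cannot be told apart here. Spermatogenesis markers summed to 25.6 to 31.9 CPM in the offspring libraries, against 0.843 to 1.77 CPM in the N2 and fem-2 oogenic libraries.

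Between strains of the same germline type no member was called either. In him-8 against N2 male germlines 0 of 31 genes passed (0% of 8303 genes tested), with a median of 0.06, and in fem-2 against N2 oogenic germlines 0 of 31 passed (0.165% of 7874 genes called), with a median of 0.06. Adjusted p was 0.999 or above for every member in both pairs. In the oogenic pair pbs-1 alone had an unadjusted edgeR p under 0.05 (0.032, log2 fold change 0.29 ± 0.11). With the adjusted p tied, pas-1 (C15H11.7, chromosome V), an alpha ring gene, stands for the rest. It had 114, 97.3, 103 and 102 CPM in him-8 and 89.0 and 98.0 CPM in N2 male germlines, and 117, 127 and 131 CPM in fem-2 and 94.6, 132 and 169 CPM in N2 oogenic germlines, with overlap in both pairs.

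Genes that work beside the proteasome were counted from lists set out with the members, and their counts stand beside 3287 higher and 1886 lower of 8574 genes in N2 and 3125 higher and 2811 lower of 9244 in him-8 against fem-2. Of 8 proteasome-associated genes, which include rpn-6.2, dss-1 (a small lid subunit) and ubh-4 (a deubiquitinase), 7 rose and 0 fell in N2 males and 6 rose and 0 fell in him-8 against fem-2, with medians of 0.78 and 0.52. With total counts 1 rose and 1 fell in N2 and 2 rose and 1 fell in him-8 against fem-2. Of 10 genes of the anaphase-promoting complex, the ubiquitin ligase of meiotic and mitotic exit, 0 rose and 4 fell in N2 males and 0 rose and 6 fell in him-8 against fem-2, and 8 fell in each pair with total counts. Among 5 cullins, scaffolds of ubiquitin ligases, 4 rose and 1 fell in N2 males and 2 rose and 1 fell in him-8 against fem-2, against 1 and 1, and 1 and 2, with total counts. The largest rise was that of cul-3 (1.84 ± 0.17 and 1.35 ± 0.14), at 694 to 706 CPM in N2 male and 347 to 395 CPM in N2 oogenic germlines, and the fall was that of cul-5 (-1.39 ± 0.22 and -1.59 ± 0.23).

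The segregase genes, among them cdc-48.2, whose product extracts ubiquitinated proteins, rose in 3 of 4 cases and fell in 0 in both sex comparisons with TMM, but with total counts 0 rose and 2 fell in N2 and 1 rose and 1 fell in him-8 against fem-2. Of 4 regulators of proteasome gene expression 3 rose and 1 fell in N2 males, and 1 rose and 1 fell in him-8 against fem-2, while with total counts 0 rose and 1 fell in each pair. The gene that fell in both was skn-1, which encodes the Nrf-type factor that activates proteasome genes in C. elegans, at -0.54 ± 0.18 and -0.80 ± 0.10 (edgeR adjusted p = 0.032 and 0.00014), but its sign turned with a length correction (0.42 and 0.43), and the N2 call was lost without N2 male replicate 2 or N2 oogenic replicate 2. In him-8 sperm against him-8 male germlines skn-1 rose (1.01 ± 0.17, adjusted p = 0.0045).

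Of 4 genes for ubiquitin and its activation, 1 rose and 0 fell in N2 males and 0 rose and 1 fell in him-8 against fem-2 (0 and 2, and 0 and 1, with total counts), whereas 2 rose and 2 fell in him-8 sperm and 1 rose and 2 fell in mes-3 male germlines (1 and 2 in both with total counts). The falls there were those of ubq-2 and ubl-1, whose products join a ubiquitin or ubiquitin-like part to a ribosomal protein. Summed ribosomal protein genes averaged 17118 CPM in him-8 sperm and 52092 CPM in mes-3 male germlines, against 78175 CPM in him-8 male germlines. The ubq-2 gene was at 64.0 to 87.5 CPM in him-8 sperm, against 390.1 to 926 CPM in him-8 male germlines (log2 fold change -2.84 ± 0.37, edgeR adjusted p = 0.0021). It was at 77.6 to 128 CPM in mes-3 male germlines, against the same him-8 germlines (-2.94 ± 0.38, adjusted p = 0.0017). No library overlapped in either comparison. For ubl-1 the changes were -1.87 ± 0.28 and -1.48 ± 0.25.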

How the data were processed

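Libraries of rRNA-depleted total RNA were sequenced from germlines and sperm; the study aligned reads with TopHat2 and counted them with HTSeq on WS220 gene models (versions and strand setting not given in the sources used here). The deposited counts are the authors' raw HTSeq counts per gene and library; the 5 summary lines per library stayed out of totals. The deposited RPKM columns are the authors' pooled means per group, of which those for him-8 and N2 male germlines were used; from these, gene lengths were recovered to compute RPKM per library. Columns of the authors' own fold changes and p-values were not used.

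CPM scales each library's counts to its total gene counts. Comparisons used edgeR 4.0.16 (R 4.3.3) quasi-likelihood F tests on the compared groups only, with TMM factors, filterByExpr and Benjamini-Hochberg adjustment over all genes tested, called under 0.05; the procedure was checked on simulated data. Alternatives were median-of-ratios factors, total counts, DESeq2 1.42.0, other filters, a log2 threshold of 1, 1 fit of all libraries, a replicate block, a lowess length correction and leaving out each library. Gene symbols and chromosomes came from Ensembl 115 on WBcel235, which matched all 31 identifiers. Members and lists were chosen with earlier results of these data known. Named per comparison are up to 3 members per direction with the largest change among those called whose CPM did not overlap, or the member with the lowest adjusted p; other members named in the text were chosen after their values were seen. The labels call the replicates separate samples without naming separate cultures, so p-values measure the spread between these samples.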

Additional observations from a re-analysis of the deposited data

Results flagged for a closer look

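Among the 4 him-8 male germlines, replicate 4 had 464 CPM of rpn-5, a lid subunit gene, against 389.7, 396 and 395 CPM in the other replicates, a gap that filled 91.9% of the range. The summed core CPM was 2794 in him-8 male replicate 3, against 2838, 2846 and 2843 CPM in the others, where the whole range was small. Only groups of 4 were examined, in 35 sets of values; chance marks about 1 in 20.

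The change of pbs-1 between sperm and male germlines differed between mes-3 and him-8 by 1.21 on the log2 scale, and that of rpn-1 by -0.81, by the test of the difference itself (edgeR adjusted p = 0.018 and 0.034). The germlines of the 2 genotypes carry different library-set tags and the sperm share 1 tag, so the tag cannot be told apart from this difference.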

How the results depend on the processing

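The counts of members called, higher and lower, depended on the settings. With total counts in place of TMM factors, in counts of members higher and lower, N2 male against N2 oogenic germlines gave 2 and 6 (26 and 2 with TMM), him-8 male against fem-2 oogenic germlines 3 and 7 (20 and 2), him-8 sperm against him-8 male germlines 1 and 9 (6 and 5), mes-3 sperm against mes-3 male germlines 0 and 6 (0 and 1), mes-3 against him-8 male germlines 1 and 4 (1 and 10) and mes-3 against him-8 sperm 1 and 0 (0 and 4); for the difference of sperm effects the lower count was 0 in place of 1. The median-of-ratios factors gave 26 higher in him-8 against fem-2, 4 lower in him-8 sperm and 0 lower in mes-3 sperm against mes-3 male germlines, with every other count as with TMM. A minimum absolute log2 fold change of 1 left 8 higher and 1 lower in the N2 sex comparison, 2 higher in him-8 against fem-2, 0 higher and 2 lower in him-8 sperm, 0 lower in mes-3 sperm against mes-3 male germlines, 0 higher and 1 lower in mes-3 male germlines and 0 lower in mes-3 against him-8 sperm. Without a filter on low counts, 3 were higher in him-8 against fem-2, 1 was higher in him-8 sperm and 4 were lower in mes-3 sperm against mes-3 male germlines. The correction for transcript length gave 16 higher in the N2 sex comparison, 12 lower in him-8 against fem-2, 1 higher and 7 lower in mes-3 against him-8 sperm and 0 and 0 for the difference of sperm effects. With all 25 libraries in a single fit, mes-3 against him-8 sperm gave 1 higher and 16 lower, and DESeq2 gave 7 lower. Over all genes the single fit called 2494 of 13847 in that pair and DESeq2 1075 of 8515. The main fit called 865 of 8424, and the length correction 819 of 8180. Without a count filter, 7398 of 23484 genes were called in him-8 against fem-2 and 3625 of 21360 in him-8 sperm. In mes-3 sperm against mes-3 male germlines that setting called 3764 of 18157 genes. The cause of these changes was not tested.

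Replicate numbers share only a number and did not pair the libraries (correlations of deviations between same-numbered libraries of -0.33 to 0.26). With the replicate block, 0 members were higher and 1 lower in him-8 sperm, 0 were lower in mes-3 sperm against mes-3 male germlines, 5 were lower in mes-3 male germlines, 0 were lower in mes-3 against him-8 sperm, and 0 and 0 were called for the difference of sperm effects (adjusted p = 0.051 for pbs-1 and 0.064 for rpn-1 by edgeR); in offspring 0 members were called beside 543 of 11962 genes; other counts under the block stayed within 1.5 times. Of all genes the block called 12.4% in him-8 sperm, 24.7% in mes-3 sperm against mes-3 male germlines and 17.4% in mes-3 male germlines. It called 4.45% in mes-3 against him-8 sperm and 2.30% for the difference of sperm effects. Without the block these shares were 30.6%, 29.4%, 28.0%, 10.3% and 2.75%. The cause of these changes was not tested.

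Leaving out a library in turn gave 9 to 27 higher in the N2 sex comparison, 11 to 26 higher in him-8 against fem-2, 3 to 6 higher in him-8 sperm, 0 to 3 lower in mes-3 sperm against mes-3 male germlines, 4 to 10 lower in mes-3 male germlines, 0 to 6 lower in mes-3 against him-8 sperm, 0 to 1 higher in fem-2 against N2 oogenic germlines, and 0 to 1 higher and 0 to 1 lower for the difference of sperm effects. The log2 fold change of pas-1 in fem-2 against N2 oogenic germlines ranged between -0.24 and 0.14 in these fits, with the change of sign without N2 oogenic replicate 3; it was not called either way. The alternatives for the differences of effects, and total counts for the lists of other genes, were chosen after seeing the data.

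The core to cap ratio had other levels by other measures. By summed RPKM it was 0.588 in mes-3 sperm, 0.464 in him-8 sperm, 0.637 in mes-3 male, 0.797 in him-8 male, 0.746 in N2 male, 0.871 in fem-2 oogenic and 0.839 in N2 oogenic germlines, 0.759 in M+P- and 0.767 in M+P+ offspring. By the ratio of median CPM over genes it was 0.416, 0.342, 0.448, 0.570, 0.550, 0.713, 0.689, 0.575 and 0.559 in the same order. With 2 to 4 libraries a group and 1078195 gene counts in the shallowest, small changes of a member may go uncalled.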
